A study of Mus musculus with 6 samples.

Results

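The Zfp genes are a large group of mouse genes for zinc finger proteins, and 298 places with a COUP-TFII peak lay at them, of 13538 places in all (2.20%). A place is a peak of the female list or a peak of the male list, with overlapping peaks counted once. It was given to the protein-coding gene whose body lay nearest to the peak's centre, up to 100 kb away, and it was kept if that gene's symbol was Zfp followed by digits and optional letters. Zfp438 was left out. The rule used positions only, and 223 of 393 such genes had at least 1 place. Farthest inside the limit was a place 99.1 kb from Zfp507, and the nearest beyond it lay 105.8 kb from Zfp516, with 19 places beyond it in all.

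Chromatin immunoprecipitation followed by sequencing (ChIP-seq) for COUP-TFII, the nuclear receptor encoded by Nr2f2, was done on pooled mesonephroi of wild-type CD-1 embryos at E14.5. CD-1 is an outbred strain, and the mesonephros adjoins the developing gonad and holds the Wolffian and Müllerian ducts. Of 6 samples, 2 were COUP-TFII ChIP from XX embryos, 2 were COUP-TFII ChIP from XY embryos, and 2 were input from both sexes pooled. No treatment is named, and the extraction text in the labels names another factor and organ (RUNX1, fetal ovaries), while titles, tissue, antibody and design text agree on COUP-TFII and mesonephroi. Each sex has 1 list over its 2 replicates (11175 female and 9846 male peaks, each 300 bp wide, mm10, without heights), so replicate spread and depth are unknown. Each test is over the peaks of these lists and takes no account of spread between embryos, and every interval covers counting error only. A peak missing from a list may be absent or under the authors' threshold.

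Most Zfp proteins carry rows of zinc fingers that each read a few bases of DNA. Many also carry a KRAB domain, which binds the corepressor TRIM28 and through it the histone methyltransferase SETDB1, and these proteins are known for silencing transposable elements and for keeping imprints. Their genes arose by repeated duplication and many stand side by side in clusters. A few members, such as Zfp36, encode proteins of another kind that bind RNA. COUP-TFII is known to bind repeats of the half-site AGGTCA, and it is abundant in mesenchyme.

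Promoters of 6 genes under the peaks are shown first, because most peaks lay at gene starts. Each is the 250 bases before an annotated start, 5′ to 3′ on the gene's strand, from RefSeq (GRCm38.p6), and 329 of the 393 genes had an entry. The first 4 are those whose peak centre lay nearest to the start among members with AGGTCA there. Capitals mark AGGTCA or GGGTCA on either strand (TGACCT and TGACCC are their reverse complements).
Zfp280b: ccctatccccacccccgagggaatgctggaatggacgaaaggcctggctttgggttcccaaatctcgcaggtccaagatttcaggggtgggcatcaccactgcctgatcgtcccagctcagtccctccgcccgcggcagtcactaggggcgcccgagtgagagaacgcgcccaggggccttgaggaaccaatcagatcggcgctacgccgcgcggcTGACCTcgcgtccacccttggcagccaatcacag
Zfp976: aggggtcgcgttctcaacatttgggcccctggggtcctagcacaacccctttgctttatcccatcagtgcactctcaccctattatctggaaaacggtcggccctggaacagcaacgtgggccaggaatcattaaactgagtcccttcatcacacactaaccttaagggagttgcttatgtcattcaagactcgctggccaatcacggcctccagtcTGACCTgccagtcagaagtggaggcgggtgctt
Zfp273: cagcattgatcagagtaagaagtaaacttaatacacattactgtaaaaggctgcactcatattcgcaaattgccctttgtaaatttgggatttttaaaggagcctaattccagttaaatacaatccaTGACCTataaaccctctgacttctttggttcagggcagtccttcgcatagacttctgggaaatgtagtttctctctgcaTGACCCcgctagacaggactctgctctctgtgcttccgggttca
Zfp644: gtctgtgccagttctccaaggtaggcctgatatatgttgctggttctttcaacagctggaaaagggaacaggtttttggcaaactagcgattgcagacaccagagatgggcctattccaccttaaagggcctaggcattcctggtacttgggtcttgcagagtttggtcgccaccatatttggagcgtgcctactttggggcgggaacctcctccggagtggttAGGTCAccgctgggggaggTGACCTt
The other two have neither half-site and the nearest peak centres among such members. Capitals there mark CCGGAA (an Ets motif) or CCAAT on either strand, and GGGCGG (a GC box) was also searched.
Zfp109: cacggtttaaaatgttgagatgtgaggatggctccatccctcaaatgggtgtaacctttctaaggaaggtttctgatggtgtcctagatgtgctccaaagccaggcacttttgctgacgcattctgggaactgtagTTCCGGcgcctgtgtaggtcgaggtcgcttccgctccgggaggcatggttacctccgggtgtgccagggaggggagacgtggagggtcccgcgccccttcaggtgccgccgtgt
Zfp660: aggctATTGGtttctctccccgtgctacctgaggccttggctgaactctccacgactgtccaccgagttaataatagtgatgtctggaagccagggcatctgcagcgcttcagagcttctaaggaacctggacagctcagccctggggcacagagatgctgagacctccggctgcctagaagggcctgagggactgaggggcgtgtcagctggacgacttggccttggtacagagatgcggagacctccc

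The windows lie at chr10:76032362-76032611 (plus strand), chr7:42642605-42642854 (minus), chr13:67813566-67813815 (plus), chr5:106696831-106697080 (minus), chr7:24237599-24237848 (minus) and chr9:122902998-122903247 (plus). Zfp280b had a shared peak centred 4.5 bp from its start, and its half-site lay 34 to 29 bases before the start, inside the peak. Zfp976, a cluster gene on chromosome 7, also had a shared peak centred 4.5 bp from the start, with the half-site at 33 to 28 bases. Zfp273 had a female-only peak centred 20.5 bp away, over half-sites at 123 to 118 and 44 to 39 bases. Zfp644 had a shared peak centred 59.5 bp away and a pair of half-sites, at 26 to 21 and 7 to 2 bases, in opposite orientation. At Zfp109 and Zfp660 the shared peaks were centred 5.5 and 6.5 bp from the start, so a peak on the start occurred with and without a half-site in these 250 bases. The marked motif lay inside the peak at Zfp109 (114 to 109 bases) and outside it at Zfp660 (245 to 241 bases). C and G made up from 42.0% of the bases (Zfp273) to 64.4% (Zfp280b).

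Of the 393 Zfp genes, 56.7% had a place in either list, against 42.0% of all 21887 protein-coding genes. A shared place was found at 172 of them (43.8%, against 28.2%), a female-only place at 57 of the 393 (against 13.2%) and a male-only place at 41 (10.4%, against 9.55%). The Zfp genes thus lay above all genes in shared places and near them in sex-only ones, without a test of these gene counts. Median gene length was 18.95 kb for Zfp genes with a place, 17.4 kb for those without and 17.1 kb for other protein-coding genes. Counted by list, 207 Zfp genes had a female peak (52.7%, against 36.9% of all protein-coding genes) and 197 had a male peak (50.1%, against 35.1%). Among other zinc finger families, a place was found at 30 of 41 Zbtb genes (73.2%), 21 of 29 Klf and Sp genes (72.4%) and 15 of 27 Zscan and Zkscan genes (55.6%). A shared place was found at 56.1%, 51.7% and 33.3% of these genes, in the same order. The Zbtb genes and the Klf and Sp genes thus lay above the Zfp genes in both shares.

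Most Zfp genes with a place had just 1 (169 genes), 39 had 2 and 15 had 3 or more. Having 2 or more places was about as common (13.7%) as among all protein-coding genes (11.2%). Zfp827, whose product works in chromatin at telomeres, had the most places, with 3 shared, 1 female-only and 1 male-only. Its shared peaks were at 79028022 to 79028321, 79030098 to 79030397 and 79030915 to 79031214 on chromosome 8, inside the gene (79027486 to 79193768) and up to 2.63 kb from a start. The male-only peak lay 1.26 kb from that start, among the shared ones, and the female-only peak lay 83.2 kb from it. Zfp827 thus held a group of peaks at its first kilobases in both sexes and a single distant one in the female list.

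**Figure D1:**
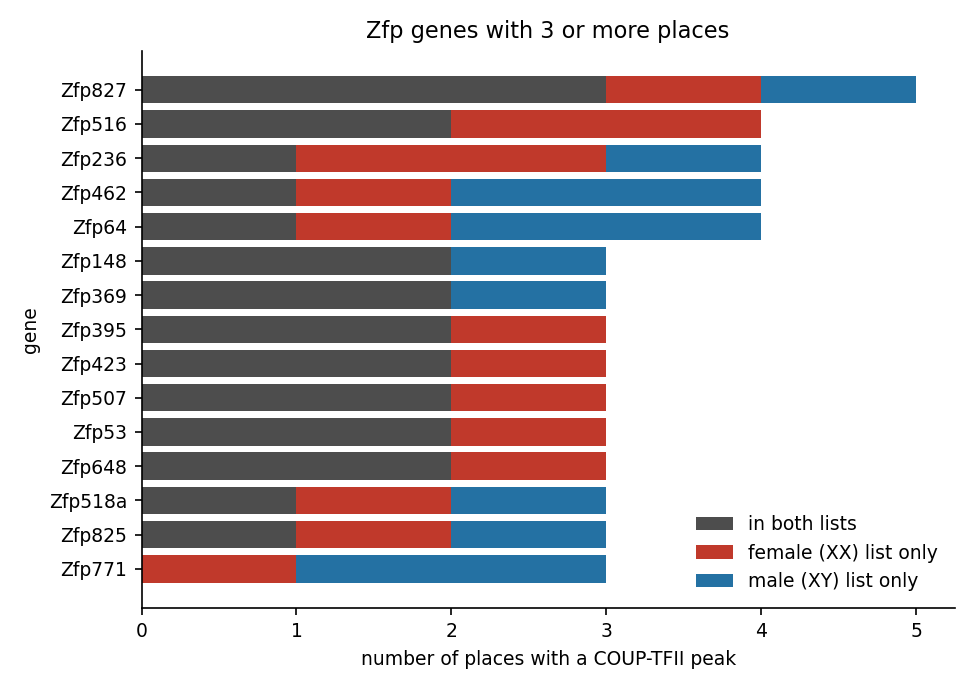
Number of places with a COUP-TFII peak (x axis) at each of the 15 Zfp genes with 3 or more places (y axis), with bars divided into places in both lists, in the female list only and in the male list only. Zfp827 has 5 places and Zfp771 has 3 with none in both lists.

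Genes of 4 places were Zfp64, Zfp236, Zfp462 and Zfp516. At Zfp64, a cofactor of Notch signalling in mesenchymal cells, the shared peak was centred 149.5 bp from the start. Its male-only peaks lay 57.3 and 43.1 kb into the gene from the start, and its female-only peak lay 21.1 kb outside. Zfp462 had a shared peak 23.5 kb from a gene end, a female-only peak 747.5 bp from an end, and male-only peaks 4.33 kb inside the gene's end and 41.2 kb outside the gene. Zfp516, a regulator of brown fat genes, had no place in or close to the gene. Its shared peaks lay 54.0 and 96.9 kb outside and its female-only peaks 21.0 and 91.3 kb outside. With every gene kind allowed as the nearest gene, Zfp516 kept 0 of its 4 places and Zfp462 kept 2 of 4. Of the genes with 3 places, Zfp648 then kept 0, and Zfp369, Zfp507, Zfp518a and Zfp825 kept 1 each. Zfp395 kept 1 of 3 when a gene had to lie within 10 kb.

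Regulators of mesenchymal and fat cell fate were represented by Zfp423 and its relative Zfp521. Zfp423, a partner of SMAD proteins in BMP signalling, spans 300 kb of chromosome 8 (87661810 to 87962053). It had shared peaks at 87875508 to 87875807 and 87938451 to 87938750, both inside the gene and 71.2 and 21.0 kb from an annotated start, and a female-only peak 13.3 kb outside. Zfp521 had 1 shared peak 2.54 kb inside the gene's end and 1 female-only peak 44.4 kb outside. Neither gene had a male-only place. Within the 100 kb limit, Zfp536 and Zfp608 each had 2 female-only places and nothing in the male list. The nearest male peak was over 100 kb away at each of these places. Beyond the limit, a shared place lay 141.3 kb from Zfp608.

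Some genes known for imprinting or for silencing retroelements are given here as examples, picked by name and not as a tested group. Zfp57 (gene 22715, chromosome 17, 37001163 to 37010729), which protects imprinted methylation, had a shared peak 154.5 bp from a start, with female and male centres 21 bp apart. Zfp445, which shares this role, had one 119.5 bp from a start, and Zfp809, which silences retroviruses in early embryos, had one 23.5 bp away. Zfp568, a repressor of a placental transcript of Igf2, had one 124.5 bp from a gene end. Zfp708, another silencer of retroelements, had only a male-only place, 341.5 bp from a start. The first 4 were thus marked in both lists and Zfp708 in the male list alone. A shared place was found at 43.8% of the 393 Zfp genes and at 28.2% of all protein-coding genes. No place was found at 170 of the 393. The examples do not set such genes apart from other Zfp genes.

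Other well-studied genes had places both at and away from a start. Zfp148 had shared peaks 79.5 and 50.5 bp from 2 annotated starts and a male-only peak 19.2 kb into the gene. Zfp143, an activator of many housekeeping promoters, had a shared peak 418.5 bp after an annotated start. Its female-only peak lay 558.5 bp before its other annotated start, which is close to the first. Zfp281, a factor of pluripotent cells, had no shared place: the female-only peak lay 214.5 bp from its start and the male-only peak 78.0 kb outside the gene. Zfp217 had a shared peak 2.01 kb and a female-only peak 5.09 kb outside the gene, with the nearest start 11013.5 and 27669.5 bp away.

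Of 60 well-studied Zfp genes listed by name, 47 had a place (78.3%) and 39 had a shared place (65.0%). Among the remaining 333 Zfp genes, 176 had a place (52.9%) and 133 a shared one (39.9%), and their median length was shorter, 17.1 kb against 29.0 kb. Of the 60 listed genes, those without a place included Zfp36 (an mRNA decay factor) and Zfp42 (a marker of pluripotent cells, also called Rex1). The others of the 60 without one were Zfp365, Zfp503, Zfp618, Zfp628, Zfp646, Zfp706, Zfp740, Zfp750 (a regulator of epidermis), Zfp804a, Zfp804b and Zfp831. The partners of KRAB proteins were also read, and both gene lists were chosen with earlier results of these data known. Of 20 such cofactor genes, 17 had a place (against 42.0% of all protein-coding genes) and 14 a shared one (against 28.2%), without a test. Their 26 places were 17 shared, 6 female-only and 3 male-only. Trim28 had 1 shared place 67.5 bp from its start, while Setdb1 had 1 female-only place 100.5 bp from its start. Cbx5, an HP1 protein gene, had 4 places, 2 of them shared, and Tasor, a subunit of the silencing complex HUSH, had 1 female-only and 1 male-only place. Cbx3, Dnmt3b and Pphln1 had no place.

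Clusters were read as runs of neighbouring Zfp genes with no other protein-coding gene between them. There were 28 runs of 3 or more (159 genes), 24 pairs and 186 genes standing alone. Of the genes standing alone, 61.3% had a place, against 58.3% in pairs, 58.0% in runs of 3 to 5 and 45.6% in runs of 6 or more. Over all protein-coding genes the share was 42.0%, so the longest runs lay near it. Runs of 3 or more had 0.579 places per gene, and genes alone had 0.887. Places in runs of 3 or more lay within 1 kb of a gene end in 69 of 92 cases (95% exact interval 64.9% to 83.4%), against 53.4% (46.3 to 60.4) for genes alone or in pairs, and 4 of the 92 lay over 10 kb outside their gene, against 35 of 206. A place goes to its nearest gene, so close neighbours in a run limit how far outside its gene it can lie. The part of gene spacing in these contrasts was not tested. How reads that match several related genes were placed is not given in the sources used here, so a cluster gene without a place cannot be called unbound.

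The longest run, 20 genes on chromosome 13 from Zfp455 to Zfp273 (67194506 to 67827000), had places at 9 genes, with 5 shared, 4 female-only and 0 male-only. The next, 15 genes on chromosome 7 from Zfp84 to Zfp146 (29768552 to 30169775), had places at 8 genes, with 5 shared, 3 female-only and 1 male-only. Single runs differed widely. A run of 5 genes on chromosome 8 (Zfp868, Zfp964, Zfp869, Zfp963 and Zfp866, 69610654 to 69774911) had a shared place at each gene and a male-only one at Zfp868. A run of 4 on the same chromosome (Zfp709, Zfp882, Zfp617 and Zfp961) also had a shared place at each. In all, 4 runs of 3 or more had a place at every gene, and 2 had none: 6 genes on chromosome 4 from Zfp980 to Zfp993 and 4 genes on chromosome 7 from Zfp954 to Zfp772.

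By chromosome, 24 of 25 Zfp genes on chromosome 8 had a place, against 43.7% of its other protein-coding genes, and Zfp42 was the exception. All 10 did on chromosome 18, against 48.7% of its other protein-coding genes. On chromosomes 2 and 4 only 9 of 27 did on each (33.3%), below the other protein-coding genes there (41.3% and 46.0%). Chromosome 7, with most Zfp genes, had places at 51 of 93 (54.8%), against 30.0% of its other genes. These contrasts were picked out after the counts were seen and were not tested.

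**Figure D2:**
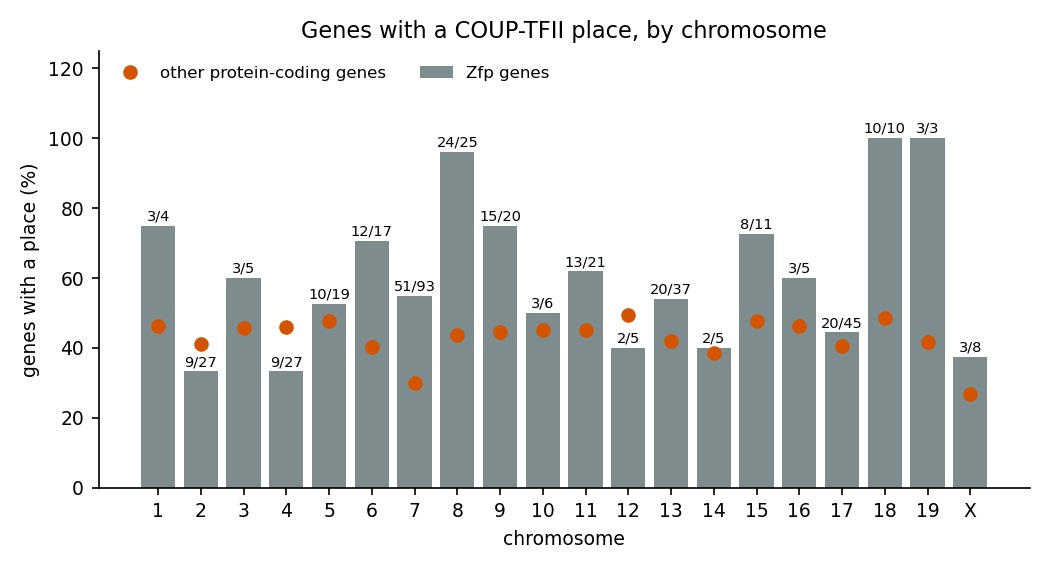
Percent of genes with a COUP-TFII place (y axis) on each chromosome with Zfp genes (x axis), for Zfp genes (bars, labelled with genes with a place over all Zfp genes) and other protein-coding genes (points). Chromosome 8 stands at 24 of 25 and chromosomes 2 and 4 at 9 of 27 each.

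Most places lay in or close to their gene: 212 of 298 were inside it (71.1%), 47 within 10 kb outside and 39 farther out. Lying inside the gene was about as common at other protein-coding genes, with 8591 of their 12388 places. Inside or within 10 kb outside were 259 of the 298 Zfp places and 10867 of these 12388. Of the 235 places whose gene had an annotated start, 174 (74.0%) were centred within 1 kb of it and 158 within 500 bp. With genes that lack an annotated start counted too, this was 174 of 298 Zfp places. At other protein-coding genes it was 6287 of 12388, so nearness to a start was common there as well. The middle of the peak usually lay just after the start. Of these 174 places, 121 (69.5%) were downstream, with a median of 103.5 bp after the start and quartiles at -61 and 172.75 bp. Other protein-coding genes had nearly the same median, 105.5 bp, with 68.7% downstream, and quartiles at -82.5 and 266.5 bp. Zfp places were packed more closely: 33.3% lay 100 to 250 bp after the start, against 1569 of the 6287 others, and 5.17% lay 500 to 1000 bp after it, against 9.30%. In runs of 3 or more the median was 114.5 bp (67 places), and for genes alone 64.5 bp (88 places).

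**Figure D3:**
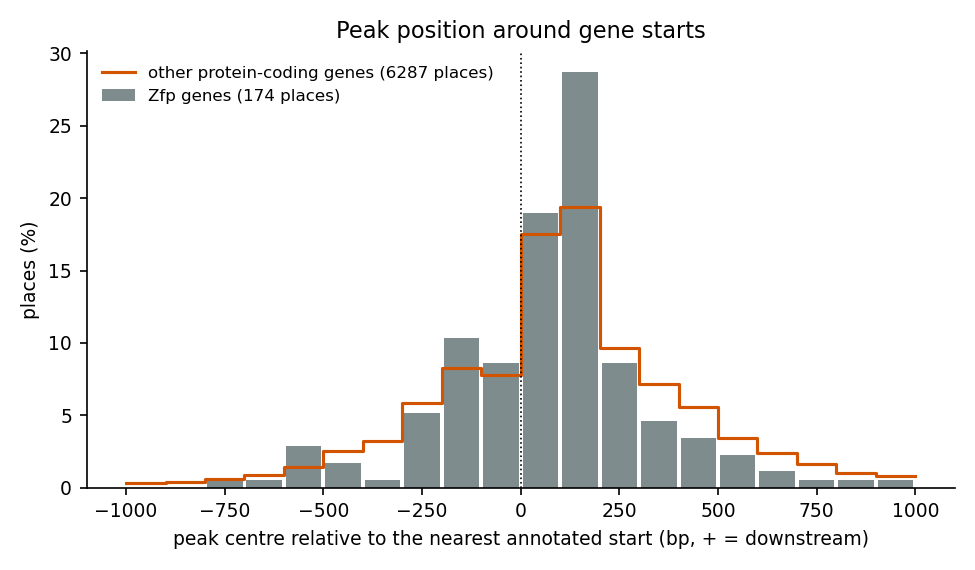
Position of peak centres relative to the nearest annotated start of their gene (x axis, bp, positive downstream) as percent of places within 1 kb (y axis), for 174 places at Zfp genes (bars) and 6287 at other protein-coding genes (line). Both peak just after the start, with medians of 103.5 and 105.5 bp.

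Nearness to either end of a protein-coding gene did not pass the test: 179 of 298 Zfp places (60.1%, 95% exact interval 54.3 to 65.7) lay within 1 kb of one, against 56.6% of other places with a gene (odds ratio 1.15, 0.907 to 1.47, adjusted two-sided Fisher's exact p = 0.356, Benjamini-Hochberg over 3 comparisons). Counting annotated starts alone, without chromosome 18, which has no entries, 178 of 278 Zfp places (64.0%) lay within 1 kb, against 53.4% of others (odds ratio 1.55, adjusted Fisher's exact p = 0.00123). Of the other alternatives tried for nearness to an end, 10 stayed uncalled and 1 turned below other genes. The rule that set the members also used distance to a gene body, so the call with starts is a description only. Of the Zfp places, 31 lay within 1 kb of a start of their gene but farther from its ends. Zfp109, Zfp638 and Zfp800 are examples, with shared peaks 5.5, 128.5 and 61.5 bp from a start and 9.80, 47.4 and 51.3 kb from a gene end. Genes given Zfp places were shorter (median 20.7 kb) than those given other places (35.8 kb). The parts of gene length and of start coverage in this result were not tested. A start was annotated for 329 of the 393 Zfp genes, against 17492 of all 21887 protein-coding genes.

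A start near a peak was not always that of the gene it was given to. In all, 10 Zfp places had the start of another protein-coding gene within 1 kb. The male-only place given to Zfp786 lay 49 bp from a start of Zfp398, and the shared place given to Zfp580 lay 154 bp from a start of Zfp784. The shared place at Zfp319 also had the Usb1 start 630 bp away, and one of those at Zfp91 the Lpxn start 490 bp away.

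Whether a place was in both lists was then compared. The rule that set the members did not use this, but the members were chosen with earlier results of these data known. Of the 298 Zfp places, 192 were shared, 62 female-only and 44 male-only. The shared share was 64.4% (58.7 to 69.9), against 55.1% (54.2 to 55.9) of the 13240 other places and 56.2% of the 12388 of them at another protein-coding gene. Against all other places this was an odds ratio of 1.48 (1.16 to 1.90, adjusted two-sided Fisher's exact p = 0.00429). With 1 place per gene it was 71.7% against 61.5% (adjusted Fisher's exact p = 0.00498). The call ended when sharing needed 50% of each peak in common (54.9% against 50.1%, adjusted Fisher's exact p = 0.298) or centres within 100 bp (46.1% against 44.0%, adjusted Fisher's exact p = 0.437). It also differed by position: within 1 kb of a gene end 73.7% of Zfp places were shared, against 64.1% of others (odds ratio 1.57, adjusted Fisher's exact p = 0.0216), and farther away 50.4% against 45.8% (adjusted Fisher's exact p = 0.529). Near and distant places were not tested against each other.

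**Figure D4:**
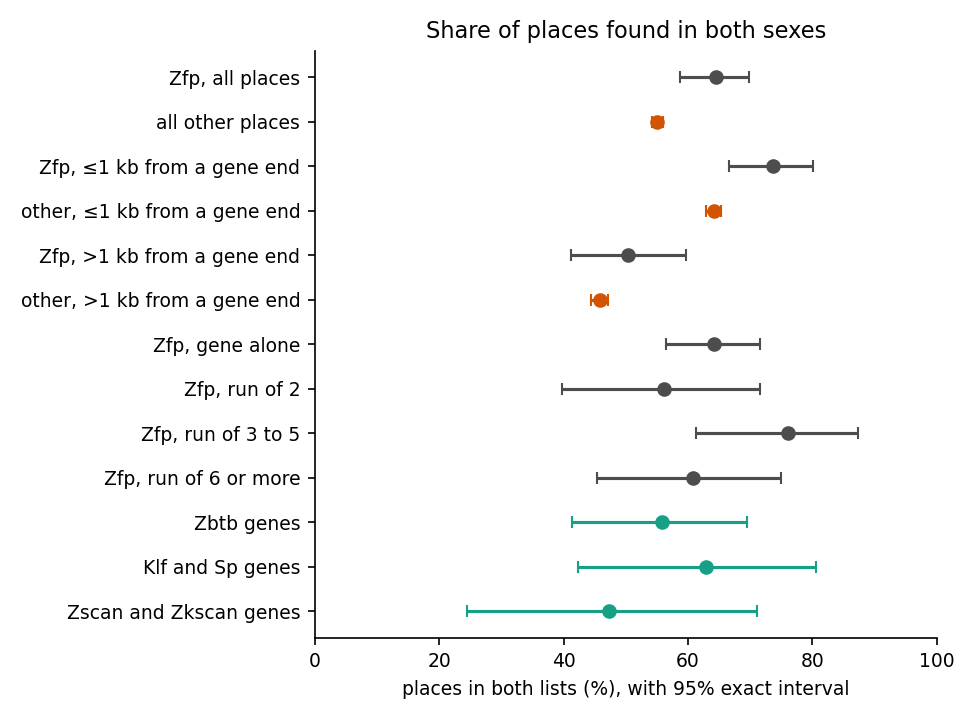
Percent of places found in both lists (x axis, points with 95% exact intervals) for Zfp genes and other places, in all, by distance to a gene end and by the size of the run of Zfp genes, and for other zinc finger families. Zfp places stand at 64.4% against 55.1% of other places, and at 73.7% against 64.1% within 1 kb of a gene end.

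The share ran from 56.1% in pairs of genes (39.7 to 71.5) and 60.9% in runs of 6 or more (45.4 to 74.9) to 76.1% in runs of 3 to 5 (61.2 to 87.4). It was 55.8% of 52 places at Zbtb genes (41.3 to 69.5), 63.0% of 27 at Klf and Sp genes (42.4 to 80.6) and 47.4% of 19 at Zscan and Zkscan genes (24.4 to 71.1). The intervals of these groups overlap that of all Zfp places. Female and male centres of shared Zfp peaks lay a median of 33.5 bp apart (all shared places, 33 bp), and 123 of 192 lay within 50 bp. At one place of Zfp563 and at Zfp638 they coincided to the base, and at Zfp280d, Zfp292 and Zfp950 they lay 1 bp apart.

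Sex-only places did not lean to a sex beyond the rest of the lists. Female-only places were 58.5% of the 106 sex-only Zfp places (48.5 to 68.0), against 61.0% of other sex-only places (odds ratio 0.900, 0.600 to 1.36, adjusted two-sided Fisher's exact p = 0.616). Their positions are given without a test. Of female-only Zfp places 32 of 62 were inside the gene (51.6%), against 36 of 44 male-only ones (81.8%), where other genes had 62.3% and 73.0%. Of the same places 23 of 62 female-only and 24 of 44 male-only ones lay within 1 kb of a gene end. Among other genes, 38.3% of female-only and 58.2% of male-only places lay within 1 kb of an end.

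Some sex-only places had a peak of the other list close by. That was so for 24 of the 106 within 1 kb, edge to edge (22.6%), and for 17.7% of other sex-only places. There were 9 genes (2.29%, against 1.83% of all protein-coding genes) with both female-only and male-only places and no shared one, namely Zfp263, Zfp281, Zfp316, Zfp551, Zfp689, Zfp703, Zfp704, Zfp715 and Zfp771. At 6 of them a female and a male peak lay within 1 kb, edge to edge. Beyond the 100 kb limit, Zfp703 had a shared place 143.8 kb away. Zfp689 had peak centres 316 bp apart, 391.5 and 75.5 bp from the start. At Zfp263 they were 322 bp apart on opposite sides of the start, at Zfp771 378 bp, at Zfp551 408 bp, at Zfp715 443 bp and at Zfp316 1239 bp. At the first 5 of these both peaks lay within 1 kb of a start, so the lists differ there in where the peak was called, and not in whether the start region carried one.

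The sex-only places closest to a gene included some with nothing near in the other list. Nearest to an end of their assigned gene among female-only places were those at Zfp273 (20.5 bp from the end, nearest male peak centre 33768 bp away), Zfp551 and Zfp715 (35.5 bp each), Zfp607b (109.5 bp) and Zfp939 (114.5 bp, nearest male peak centre 68446 bp away). Nearest among male-only places were those at Zfp3 (24.5 bp, nearest female peak centre 64117 bp away), Zfp768 (40.5 bp), Zfp263 (42.5 bp), Zfp512b (46.5 bp) and Zfp689 (75.5 bp). Farthest outside their gene were female-only places 91.3 kb from Zfp516, 77.0 kb from Zfp507, 68.7 kb from Zfp704, 63.4 kb from Zfp703 and 59.2 kb from Zfp770. The male-only counterparts were at Zfp281 (78.0 kb), Zfp462 (41.2 kb), Zfp868 (25.7 kb), Zfp518a (20.8 kb) and Zfp213 (10.2 kb). In all, 26 Zfp genes had female-only places alone (6.62%, against 6.89% of all protein-coding genes), 16 had male-only places alone (4.07%, against 5.01%) and 140 had shared places alone (35.6%, against 22.0%).

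Promoter windows of 250 bases before to 50 after each annotated start were searched for motifs on both strands. Any overlap with a peak put a window under a place, so a motif in it can lie outside the peak. Sequences of the peaks themselves were not read. A window under a place was found at 128 of 329 Zfp genes (38.9%), against 25.3% of all 17492 protein-coding genes with a window. The half-site AGGTCA was in 24 of the 145 Zfp windows under a place (16.6%, 10.9 to 23.6) and in 28 of the 254 other Zfp windows, against 14.7% of all windows. GGGTCA was in 26 (17.9%, 12.1 to 25.2) and 9.45%, against 13.7% of all windows. Either was in 47 of the 145 (32.4%), and the direct repeat of AGGTCA with a single base between, which itself counts as AGGTCA, was in 0 of the 145 and in 0.0470% of all windows. Half-sites were thus about as frequent in Zfp windows under a place as in other genes' windows under one (14.6% and 18.5%).

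Base composition of the Zfp promoters is given as a description, without a test. Zfp windows under a place had a median of 57.0% C and G and 17 CpG pairs, against 63.3% and 24 for other genes' windows under one, and 54.0% and 11 for Zfp windows without one. The GC box GGGCGG was in 50.3% of Zfp windows under a place (41.9 to 58.7), against 71.3% of other genes' windows under one (70.0 to 72.6) and 46.2% of all windows. The Ets motif CCGGAA was in 40.7% (32.6 to 49.2), against 37.4% for other genes under a place and 18.7% of all windows. It was also in 31.9% of Zfp windows without a place (26.2 to 38.0), where other genes' windows without one had 12.8%. CCAAT was in 47.6% and 47.2% of Zfp windows with and without a place, against 38.2% of all windows. The Nrf1 motif was in 2.07% of Zfp windows under a place and 3.54% of those without one, against 2.75% of other genes' windows under a place and 1.33% of all windows. A motif match is a description of the letters and shows no binding.

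**Figure D5:**
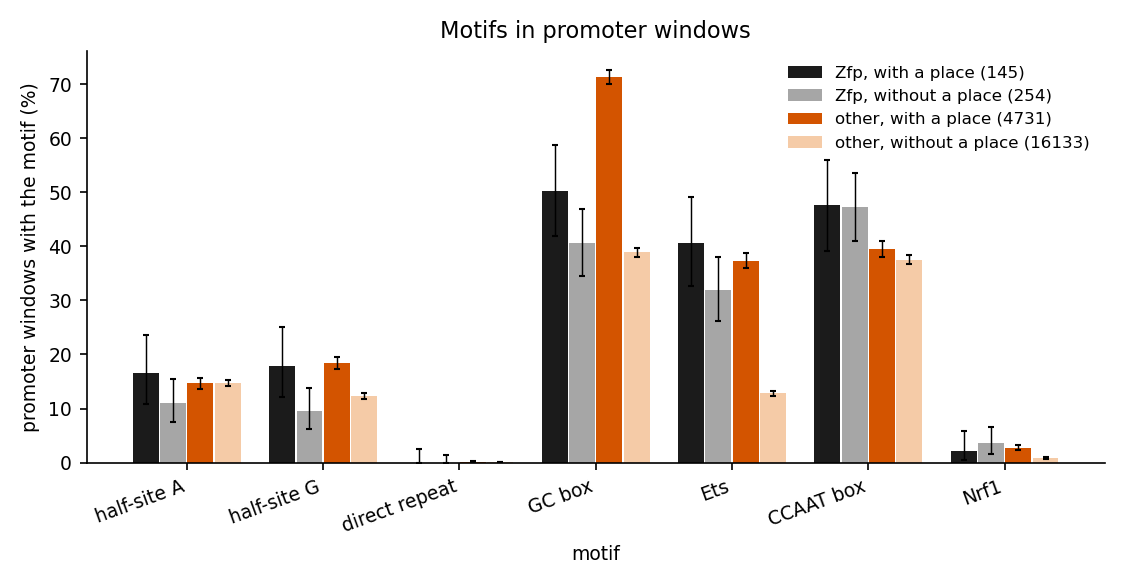
Percent of promoter windows that hold each motif on either strand (y axis, bars with 95% exact intervals) for Zfp and other protein-coding genes, with and without a place over the window (number of windows in the legend); half-site A is AGGTCA and half-site G is GGGTCA. The GC box is in 50.3% of Zfp windows under a place and 71.3% of other windows under one.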

How the data were processed

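The 2 peak lists deposited by the authors hold chromosome, start and end, and no score or signal. Tools in the submitters' processing notes are HOMER 4.10.3, bedtools 2.24.0, Bowtie 1.2, Picard and cutadapt, and the build is mm10. Neither the peak threshold nor the way replicates were joined is given in the sources used here. Samples were grouped by title. Input and depth were not analysed here.

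Every female peak, and every male peak without 1 bp in common with one, was a place. Shared places carry female coordinates, counted from 1. Genes came from RefSeq (GRCm38.p6, the assembly of mm10) and starts from its promoter windows, which cover part of the genes. Some Zfp genes therefore have no start here. Counting and Fisher's exact tests used Python 3.11.15 with scipy 1.17.1, intervals are exact (Clopper-Pearson), and overlaps were checked with bedtools 2.31.1. Scripts were tested on simulated data. P-values of 3 comparisons were adjusted by Benjamini-Hochberg, with a threshold of 0.05.

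Genes named by rule were those with 2 or more places, the well-studied list, the 5 nearest and 5 farthest sex-only places of each sex, the closest shared centres, and runs with 3 or more places. From these, examples were taken. Chromosome contrasts and other genes were chosen after their values were seen. The members and lists were chosen with earlier results of these data known.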

Additional observations from a re-analysis of the deposited data

How the results depend on the processing

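The number of places at Zfp genes ran from 247 to 302 (298 reported) and the number of genes with one from 207 to 226 (223 reported) with genes within 10 kb, by the nearest gene end, with genes of every kind, with any symbol of Zfp and a digit, and without X and Y. The higher shared share kept its direction under every alternative tried. It lost its call with 50% of each peak in common (54.9%), with centres within 100 bp (46.1%) and with only places over 1 kb from a gene end (50.4%), as adjusted Fisher's exact p = 0.298, 0.437 and 0.529. The female-only share kept its direction and stayed uncalled in all 11 alternatives (48.9% to 66.1%). Nearness to a gene end was called with starts alone (64.0%), and turned below other genes among sex-only places (44.3% against 46.3%). The cause was not tested. Alternatives with male coordinates and by position or sharing class were added after seeing the data. The deposited lists give no depth, so an absent peak is no measure of absent binding. No paired analysis was possible because each sex has 1 list over both replicates.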
